A study of Homo sapiens with 4 samples.

Results

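The set described here consists of 10 genes: the FOS family (FOS, FOSB, FOSL1 and FOSL2), the JUN family (JUN, JUNB and JUND), and the immediate early genes EGR1, NR4A1 and ZFP36. They were taken by symbol from the 25411 gene rows of the tables, and all 10 had a row and passed the filter on low counts, which left 13663 genes. The RNA came from the human cell line BEAS-2B, derived from bronchial epithelium, kept for 72 h in medium alone (control, 2 libraries) or with 5 µM CdCl2 added (cadmium, 2 libraries). All 4 libraries share this 1 line. The labels do not say that the libraries of a group were separate cultures, and the p-values then measure only how far these libraries spread, which may be technical. The labels place both controls under one experiment and both cadmium libraries under another, so treatment and experiment cannot be told apart.

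Immediate early genes are transcribed within minutes of a growth signal or a stress, without new protein synthesis, and their RNAs are short-lived. FOS and JUN proteins are leucine zipper factors that bind DNA in pairs, together called AP-1: JUN proteins can pair with each other or with a FOS protein, whereas FOS proteins need a JUN partner. In bronchial epithelial cells AP-1 takes part in growth, wound closure and inflammatory gene expression, and metals are among the stresses that induce FOS and JUN.

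Levels are given as CPM, read counts scaled to a common library size by the trimmed mean of M values (TMM), and compare 1 gene between libraries. Levels of different genes are compared per length, in the deposited RPKM, which divides reads by transcript length and library size. Library totals ran from 8609243 reads in control replicate 2 to 29937242 in cadmium replicate 1, with 26529403 in control replicate 1 and 15537382 in cadmium replicate 2. Keratins KRT8 (540 to 649 CPM) and KRT18 (204 to 285 CPM), which mark epithelium, were present in every library, while the epithelial markers CDH1 (0.119 to 0.949 CPM) and EPCAM (2.04 to 5.94 CPM) were low and KRT19 had 0 to 7 reads. Summed over the epithelial list of 7 genes, the level was 1285 and 1521 CPM in the controls and 1169 and 1238 CPM with cadmium. EPCAM was higher with cadmium (log2 fold change 1.36, adjusted p = 0.0131, edgeR, but 0.0994 without cadmium replicate 1) and KRT7 lower (-1.02, adjusted p = 0.00234), and the part of either in the results below was not tested. Of 12 genes of other cell types 11 had a row, their summed level was 4541 and 3723 CPM against 3451 and 3275 CPM, and with edgeR 1 gene passed, the leukocyte integrin ITGAM on 2 to 30 reads (adjusted p = 0.0490). ITGAM did not pass without any 1 of the libraries (adjusted p from 0.0648 to 0.311), and DESeq2 instead called COL1A1 lower (log2 fold change -0.33, adjusted p = 0.0387). The fibroblast collagen COL1A1 stood at 3068 to 4379 CPM and PDGFRB at 162 to 205 CPM. The leukocyte gene PTPRC had 0 to 2 reads, and CD3E, PECAM1 and SFTPC had 0 in every library.

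Promoter sequences are shown for FOS, EGR1 and JUN, whose levels differed widely between the controls, and for FOSB and ZFP36, which were higher with cadmium. NR4A1 was also higher with cadmium, and its windows are not printed. Each line gives the 250 bases before the annotated start, 5′ to 3′ on the gene's strand, from RefSeq on GRCh38.p14. Capitals mark TGACG on either strand, the core of the cyclic AMP response element (CRE), and the CArG box and the MEF2 site, which bind serum response factor and MEF2 proteins. The windows lie at chr14:75278578-75278827 (plus strand) for FOS, chr5:138465229-138465478 (plus) for EGR1, chr1:58784048-58784297 (minus) for JUN, chr19:45467746-45467995 (plus) for FOSB and chr19:39406597-39406846 (plus) for ZFP36.
FOS: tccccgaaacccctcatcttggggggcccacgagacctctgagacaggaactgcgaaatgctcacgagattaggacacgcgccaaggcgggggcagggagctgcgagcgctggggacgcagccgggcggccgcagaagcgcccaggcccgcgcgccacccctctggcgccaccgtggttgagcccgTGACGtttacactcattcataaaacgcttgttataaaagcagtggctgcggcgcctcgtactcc
EGR1: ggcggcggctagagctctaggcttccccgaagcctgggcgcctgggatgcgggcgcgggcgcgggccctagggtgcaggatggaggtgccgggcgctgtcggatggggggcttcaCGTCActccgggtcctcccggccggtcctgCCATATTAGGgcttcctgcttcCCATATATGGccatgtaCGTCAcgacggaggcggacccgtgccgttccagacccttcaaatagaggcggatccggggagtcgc
JUN: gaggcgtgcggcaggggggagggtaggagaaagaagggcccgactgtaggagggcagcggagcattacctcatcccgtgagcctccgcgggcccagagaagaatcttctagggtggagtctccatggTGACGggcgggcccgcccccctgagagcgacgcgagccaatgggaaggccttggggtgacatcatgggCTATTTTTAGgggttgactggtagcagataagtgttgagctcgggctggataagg
FOSB: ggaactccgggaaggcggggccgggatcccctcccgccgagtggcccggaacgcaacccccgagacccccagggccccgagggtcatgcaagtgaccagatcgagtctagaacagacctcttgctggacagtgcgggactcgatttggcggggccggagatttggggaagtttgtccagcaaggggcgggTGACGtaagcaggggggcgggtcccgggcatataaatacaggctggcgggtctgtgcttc
ZFP36: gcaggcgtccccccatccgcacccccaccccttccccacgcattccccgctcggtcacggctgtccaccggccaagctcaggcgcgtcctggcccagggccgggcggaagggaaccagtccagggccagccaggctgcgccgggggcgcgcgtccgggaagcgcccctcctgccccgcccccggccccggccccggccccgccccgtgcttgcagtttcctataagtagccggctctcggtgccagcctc

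Windows were found for 9 of the 10 genes, with 2 for NR4A1, and the gene not matched was FOSL1. TGACG, searched on both strands, was found in 7 of these 10 windows, those of FOS, FOSB, FOSL2, JUN, JUNB, JUND and EGR1, and in 21.2% of 35116 promoter windows of the same length. It lay 64 bases before the start in FOS, 60 in FOSB and 66 in FOSL2. The full CRE, TGACGTCA, which holds TGACG on both strands, was found in JUND alone among the 10 windows and in 1.65% of all windows. EGR1 held a pair of CArG boxes, starting 105 and 83 bases before its start, a motif found in 1.16% of all windows and in no other window of these genes. JUN held a MEF2 site (0.515% of all windows). The AP-1 site, searched only in the exact form TGACTCA, was in 0 of the 10 windows and in 4.20% of all windows. Sites that differ from TGACTCA by a letter or more are not in this count. The EGR site GCGNGGGCG was found in EGR1 alone (8.41% of all windows). NR4A1 and ZFP36 held none of these motifs. Matches describe the letters in these windows only.

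With cadmium, 3 of the 10 genes were higher and 0 were lower (edgeR quasi-likelihood test, Benjamini-Hochberg adjusted p under 0.05 over all genes tested). FOSB, NR4A1 and ZFP36 rose by 2.36-fold, 1.80-fold and 1.63-fold. Among all 13663 genes, 8.85% were higher and 7.66% lower at this threshold. With an unadjusted p under 0.05 the counts were 5 and 0, JUNB and JUND being the other two, against 17.3% and 16.7% of all genes. DESeq2 called 4 higher (these 3 and JUNB) and 0 lower, against 7.08% and 7.05% of the genes to which it gave an adjusted p. With limma-voom 3 were higher and 0 lower, against 10.2% and 8.84%. The 2 cadmium libraries lay above both controls for 7 of the 10 genes and below both for 0, against 31.3% and 30.8% of all genes. The median log2 fold change of the set was 0.63, beside 0.0019 over all genes. With libraries scaled by their totals alone, 67.9% of the calls over all genes were higher against 53.6%, and FOSB, NR4A1 and ZFP36 passed as before, with 10.6% of all genes higher.

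**Figure D1:**
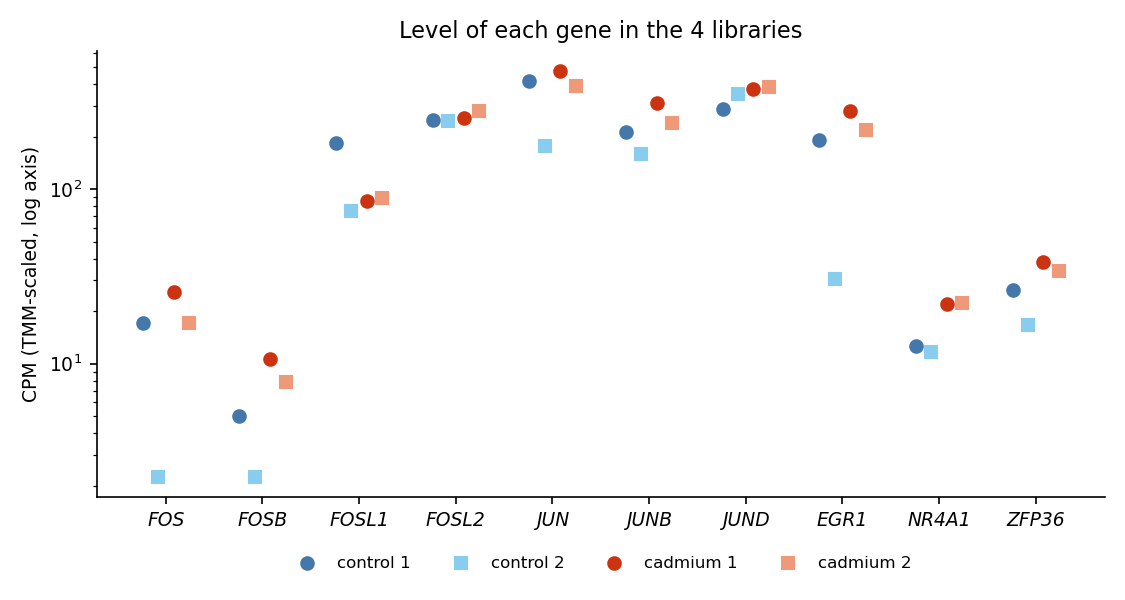
Level of each of the 10 genes in the 4 libraries, in TMM-scaled CPM on a log axis (blue, controls; red, cadmium; circles, replicate 1; squares, replicate 2). Control replicate 2 lies far below the other libraries for FOS (2.26 CPM) and EGR1 (30.4 CPM), while the 2 points of each group nearly coincide for NR4A1.

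NR4A1 (chromosome 12, 52445186 to 52453291 in hg19, plus strand) encodes an orphan nuclear receptor that is itself an immediate early product. Its reads numbered 330 and 98 in control libraries and 671 and 350 in cadmium libraries. The levels were 12.7 and 11.6 CPM against 21.9 and 22.1 CPM. The libraries of each group lay close together, and the groups were well apart. The log2 fold change was 0.85 (SE 0.14, adjusted p = 0.00911, edgeR, n = 2 each). Without each library in turn it ranged from 0.79 to 0.92, with adjusted p from 0.00112 to 0.0415. NR4A1 passed under 15 of 16 alternative settings, more than any other gene of the set.

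FOSB (chromosome 19, 45971253 to 45978437, plus strand) encodes a FOS protein whose RNA is low in resting cells. It had 4.99 and 2.26 CPM in the controls and 10.6 and 7.85 CPM with cadmium. The value in control replicate 2 rests on 19 reads, with a 95% counting interval (exact Poisson, counting error only) from 1.36 to 3.52 CPM. Both cadmium libraries were above both controls. FOSB rose by 1.24 on the log2 scale (edgeR SE 0.33, adjusted p = 0.0410). Without cadmium replicate 1 it no longer passed (log2 fold change 1.03, adjusted p = 0.193), and without control replicate 1 the value was 2.05 (adjusted p = 0.00331).

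ZFP36 (chromosome 19, 39897487 to 39900052, plus strand) encodes tristetraprolin, a zinc finger protein that binds AU-rich elements and speeds the decay of cytokine and immediate early RNAs. It stood at 26.3 and 16.7 CPM in the controls and at 38.3 and 33.8 CPM with cadmium. The groups did not overlap. ZFP36 rose by 0.71 on the log2 scale (edgeR SE 0.20, adjusted p = 0.0485), just under the threshold. It did not pass without cadmium replicate 1 (0.63, adjusted p = 0.200) or without cadmium replicate 2 (0.80, adjusted p = 0.0804). Without control replicate 1 the log2 fold change was 1.11 and without control replicate 2 it was 0.45, and both passed.

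FOS (chromosome 14, 75745481 to 75748937, plus strand) is the founding member of its family and the standard marker of immediate early induction. Control libraries held 448 and 19 FOS reads, cadmium libraries 791 and 270. On the CPM scale these were 17.2 and 2.26 against 25.8 and 17.1. Control replicate 1 was at the level of cadmium replicate 2, and control replicate 2 lay 7.63-fold below control replicate 1. The counting interval of control replicate 2, from 1.36 to 3.52 CPM, does not reach the other libraries. The log2 fold change was 0.97 with an SE of 0.95 (adjusted p = 0.566, edgeR). It was 3.27 without control replicate 1, with an adjusted p of 0.00275, and 0.33 (adjusted p = 0.328) without control replicate 2.

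EGR1 (chromosome 5, 137801181 to 137805004, plus strand) encodes a zinc finger factor that growth factors are known to induce through serum response factor. It stood at 192 and 30.4 CPM in the controls and at 280 and 218 CPM with cadmium. Both cadmium libraries were above both controls, but the controls differed from each other by 6.30-fold. The log2 fold change was 1.12 (SE 1.1, adjusted p = 0.579, edgeR). It was 3.04 with control replicate 1 left out (adjusted p = 9.24e-05) and 0.37 with control replicate 2 left out (adjusted p = 0.0827).

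JUN (chromosome 1, 59246463 to 59249785, minus strand), the main partner of FOS proteins, showed the same order of libraries in the controls. It had 414 and 177 CPM in the controls and 475 and 388 CPM with cadmium. The groups overlapped, since control replicate 1 was above cadmium replicate 2. The log2 fold change was 0.53 (SE 0.53, adjusted p = 0.571, edgeR). Leaving out control replicate 1 gave 1.28 (adjusted p = 0.00036), and leaving out control replicate 2 gave 0.051 (adjusted p = 0.778).

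FOSL1 (chromosome 11, 65659692 to 65667997, minus strand) encodes FRA1, a FOS protein without the strong activation domain of FOS. It was the 1 gene of the set with a negative log2 fold change, -0.58 (SE 0.53, adjusted p = 0.537, edgeR). The controls had 183 and 75.0 CPM and the cadmium libraries 85.9 and 89.4 CPM. The cadmium libraries lay close together and between the 2 controls. The direction turned with the control used. Without control replicate 2 FOSL1 was lower with cadmium, with a log2 fold change of -1.07 (adjusted p = 1.17e-06), and without control replicate 1 the value was 0.22 (adjusted p = 0.199).

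JUNB (chromosome 19, 12902310 to 12904125, plus strand), a JUN protein that can restrain the activity of JUN, stood at 214 and 159 CPM in the controls and 310 and 239 CPM with cadmium. The groups did not overlap. Its log2 fold change of 0.55 (SE 0.18) missed the threshold with edgeR (adjusted p = 0.0935). DESeq2 gave an adjusted p of 0.00543, and edgeR with the replicate number as a block gave 0.00167, so both called JUNB higher. With the numbers crossed between groups the edgeR block gave an adjusted p of 0.216, so JUNB did not pass. Without control replicate 1 the log2 fold change of JUNB was 0.79, and without cadmium replicate 2 it was 0.73. Without control replicate 2 the log2 fold change was 0.35, and without cadmium replicate 1 it was 0.36.

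JUND (chromosome 19, 18390504 to 18392466, minus strand), the JUN protein that resting cells keep at a steady level, had 288 and 351 CPM in the controls and 373 and 385 CPM with cadmium. Its log2 fold change was 0.25 (SE 0.10, adjusted p = 0.126, edgeR). It was the only gene of the set that was lower in control replicate 1 than in control replicate 2. Without control replicate 2 JUND passed (0.39, adjusted p = 0.00532), and without control replicate 1 its log2 fold change was 0.11.

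FOSL2 (chromosome 2, 28615779 to 28637516, plus strand), which encodes FRA2, moved least. Its levels were 249 and 245 CPM in the controls and 257 and 280 CPM with cadmium, which is a difference of 0.12 on the log2 scale (edgeR SE 0.081, adjusted p = 0.341). FOSL2 passed under 0 of 16 alternatives. A minus-strand row, FLJ31356, overlaps it with 6 to 17 reads per library, against 2061 to 7858 for FOSL2. The use of strand in counting is not given in the sources used here, so reads in the shared stretch cannot be assigned to one of the pair. None of the other 9 genes overlaps another row.

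**Figure D2:**
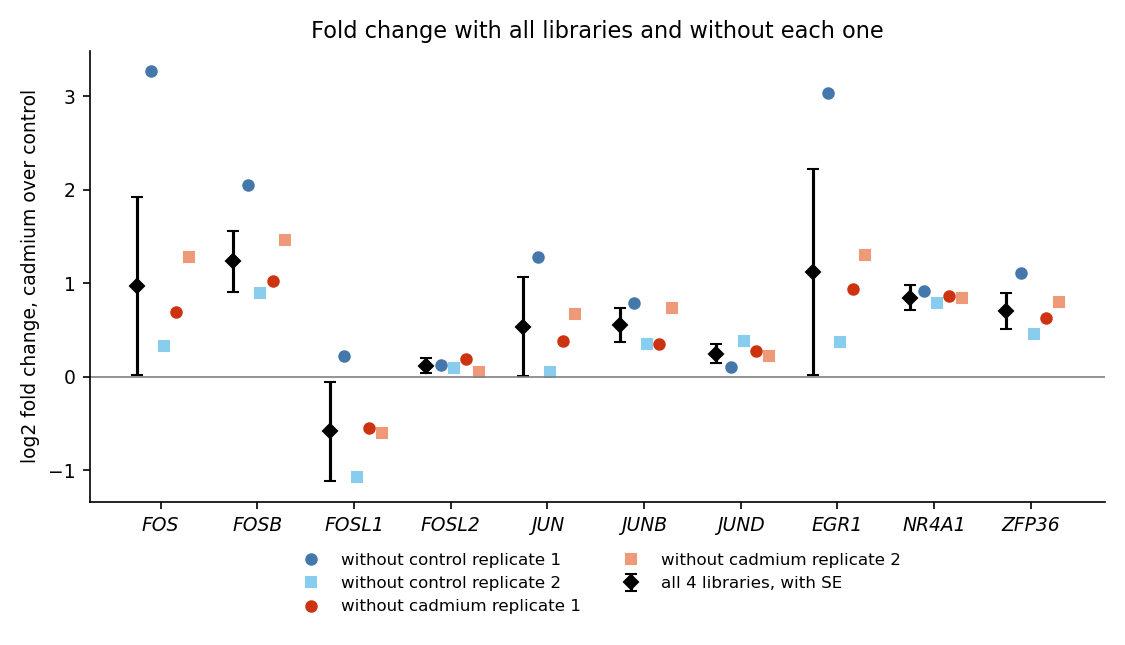
Log2 fold change of cadmium over control for each of the 10 genes, with all 4 libraries (black diamonds, bars are the SE of edgeR's fit) and without each library in turn (coloured points). NR4A1 keeps values from 0.79 to 0.92, whereas FOS spans 0.33 to 3.27 and FOSL1 spans -1.07 to 0.22, depending on which control is left out.

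The size of several changes therefore depended on which control they were set against. Without control replicate 1, 7 of the 10 genes were higher with cadmium (EGR1, FOS, FOSB, JUN, JUNB, NR4A1 and ZFP36), against 7.56% of all genes. Without control replicate 2, 4 were higher (FOSB, JUND, NR4A1 and ZFP36), against 13.8%, and 1 was lower (FOSL1), against 12.5%. Without cadmium replicate 1 only NR4A1 was higher (2.71% of all genes), and without cadmium replicate 2 FOSB, JUNB and NR4A1 were (4.18%). In these fits the lone library of a group is assumed to vary like the other group. NR4A1 was the 1 gene higher in all of these fits. The change exceeded the difference between the controls for FOSB, FOSL2, JUNB, NR4A1 and ZFP36, and not for FOS, FOSL1, JUN, JUND or EGR1. For FOSL2 it was smaller than the difference between the cadmium libraries (0.12 against 0.13 on the log2 scale).

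The difference between the controls was itself large for this set. Over 9635 genes with a mean of at least 10 CPM and reads in both controls, the median ratio of control replicate 1 to control replicate 2 was 1.00, and the median size of the difference was 1.10-fold. FOS had the 2nd highest ratio of these genes (7.63) and EGR1 the 3rd (6.30). The highest was that of the collagen gene COL5A3, named after its value was seen. FOSL1 (2.45) was 14th and JUN (2.34) 18th. Thus 4 of the 9 genes of the set at this level exceeded 2-fold in this direction, against 0.343% of all genes. FOSB, whose mean was under 10 CPM, had a ratio of 2.21. NR4A1 (1.09) and FOSL2 (1.02) were near the median. Between the cadmium libraries no gene of the set differed by more than 2-fold, against 0.0311% of all genes in the direction of replicate 1, and the ratio for FOS was 1.51. Control replicate 2 was also the shallowest library. With all libraries thinned to its total, the log2 fold changes of FOS, EGR1 and JUN were 0.97, 1.15 and 0.56, beside 0.97, 1.12 and 0.53 at full depth. Thinning at random keeps the expected share of each gene in its library, so these values were bound to stay close. The part of depth in the difference between the controls was not tested.

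**Figure D3:**
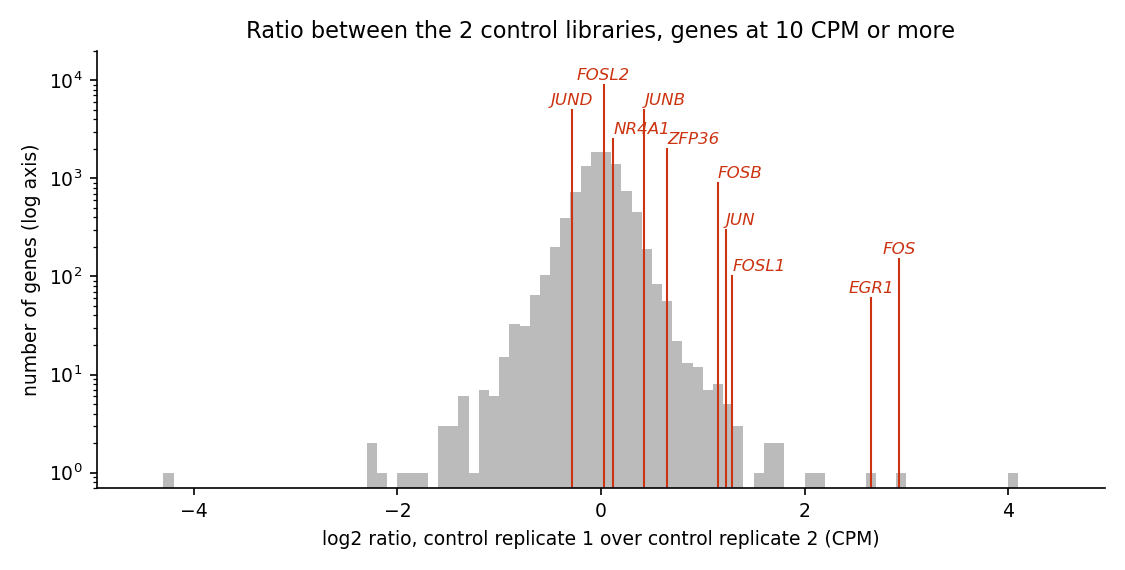
Distribution of the log2 CPM ratio of control replicate 1 to control replicate 2 over 9635 genes with a mean of at least 10 CPM (grey bars, log count axis), with the 10 genes as red lines whose height has no meaning (FOSB itself had a mean under 10 CPM). FOS and EGR1 lie in the right tail at 2.93 and 2.66, and FOSL2 and NR4A1 near the centre.

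Per length, the FOS family was made up mainly of FOSL1 and FOSL2, and FOS and FOSB were minor. FOSL1 took 60.5% and 41.6% of the family's summed RPKM in the controls and 39.4% and 40.0% with cadmium. FOSL2 took 34.4% and 56.8% in the controls and 49.2% and 52.5% with cadmium. FOS held 4.39% and 0.969% in the controls and 9.16% and 5.92% with cadmium, so its share was higher in both cadmium libraries than in either control. The level of FOS itself was nearly equal in control replicate 1 (6.95 RPKM) and cadmium replicate 2 (7.01 RPKM). FOSL1 in the same libraries was at 95.7 and 47.4 RPKM. FOSB held 0.738% and 0.589% against 2.18% and 1.57%. The family sum was 158 and 94.0 RPKM in the controls, and 117 and 118 RPKM with cadmium, which lay between them.

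The JUN family was more abundant, with sums of 339 and 279 RPKM in the controls and 451 and 393 RPKM with cadmium. JUND was the largest part in every library, with 37.7% and 55.9% in the controls and 37.7% and 44.2% with cadmium. JUN took 32.0% and 16.7% of the controls' sums and 28.4% and 26.3% of those with cadmium. JUNB took 27.4% to 33.9% over the 4 libraries. The ratio of the JUN to the FOS family sum was 2.14 and 2.96 in the controls and 3.86 and 3.32 with cadmium, without overlap. With 2 libraries against 2, an exact two-sided permutation test cannot give a p below 0.333, so these shares and ratios are given as values.

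**Figure D4:**
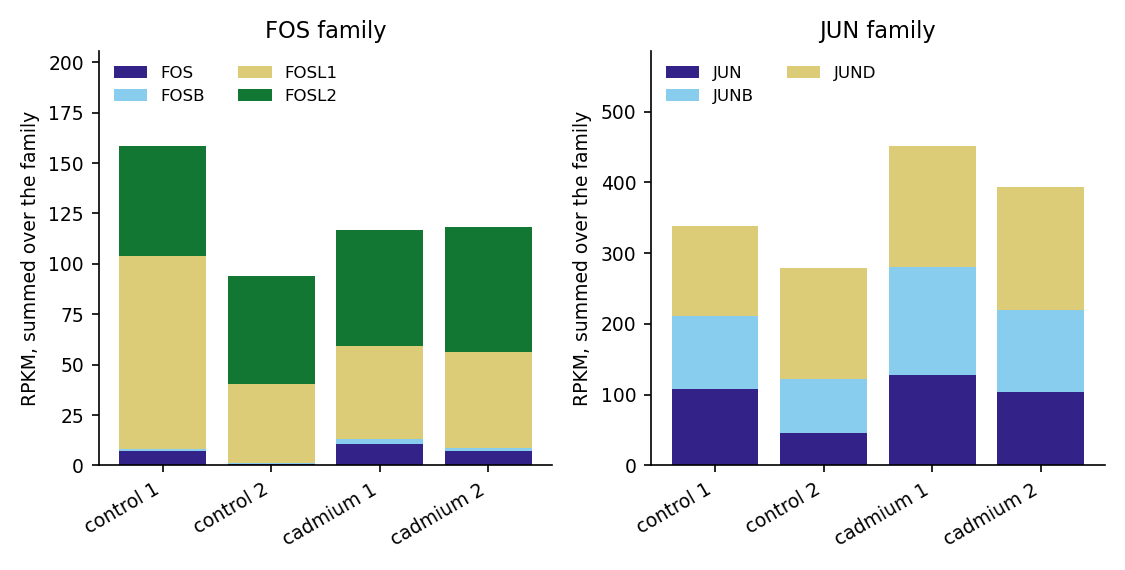
RPKM summed over the FOS family (left) and the JUN family (right) in each library, divided by gene. The 2 controls differ in the FOSL1 and JUN parts, and the JUN family sum is higher in both cadmium libraries (451 and 393 RPKM) than in the controls (339 and 279 RPKM).

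Other immediate early genes were examined as a list of 24, of which 20 were tested. SGK1, a kinase induced by serum and glucocorticoids, rose by 1.03 on the log2 scale (edgeR SE 0.26, adjusted p = 0.0302), 0 fell and 19 did not pass. At that threshold 8.85% of all genes were higher and 7.66% lower. SGK1 stood at 5.92 and 3.33 CPM in the controls and 10.4 and 9.62 CPM with cadmium. It did not pass without either cadmium library (adjusted p = 0.128 and 0.0627), and without control replicate 1 its log2 fold change was 1.59. With an unadjusted p under 0.05, 4 genes of the list were higher and 0 lower with edgeR, against 17.3% and 16.7% of all genes, and 7 and 0 with limma-voom, against 18.3% and 17.6%. The list median was 0.18, beside 0.0019 over all genes. All 15 of its genes at 10 CPM or more were higher in control replicate 1 than in control replicate 2, against 50.4% of all genes at that level. The widest ratio in this list was 4.52 for CTGF, and IER3 (2.13) and KLF2 (2.16) also exceeded 2-fold. These 3 genes were named after their values were seen. Of the lists described below, control replicate 1 was also higher for 8 of 9 textbook AP-1 targets at 10 CPM or more. The count was 8 of 9 for textbook ZFP36 target transcripts, a list that shares genes with others here. It was 5 of 7 for AU-rich element binding proteins and 8 of 18 for kinases and serum response factors. For bZIP factors it was 3 of 7, and for EGR1 corepressors 0 of 2.

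Upstream of these genes, serum response factor (SRF), which binds the CArG box, was lower with cadmium. SRF had 174 and 143 CPM in the controls and 112 and 110 CPM with cadmium, and fell by 0.52 on the log2 scale, with an SE of 0.11 and an adjusted p of 0.0168 in edgeR. Both cadmium libraries were below both controls. Of the 18 kinases and serum response factors tested, SRF fell, 0 rose and 17 did not pass, against 7.66% lower and 8.85% higher over all genes. The list median was 0.022. SRF did not pass without either cadmium library (adjusted p = 0.0666 and 0.0546). Of 11 genes for bZIP factors that can pair with AP-1 proteins, 9 were tested and 0 passed in either direction with edgeR, DESeq2 or limma-voom. Over all genes 17.3% were higher and 16.7% lower at an unadjusted p under 0.05 with edgeR, and of these 9 genes 2 were higher and 1 lower. Their log2 fold changes ran from -0.34 for JDP2, a repressor of AP-1 (adjusted p = 0.131, and 0.0268 without control replicate 1), to 0.29 for ATF7 (adjusted p = 0.0847). The EGR1 corepressors NAB1 (log2 fold change 0.31, adjusted p = 0.0911) and NAB2 (0.023, adjusted p = 0.894) did not pass, and the direction of NAB2 turned between the fits without 1 library, from -0.058 to 0.091.

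**Figure D5:**
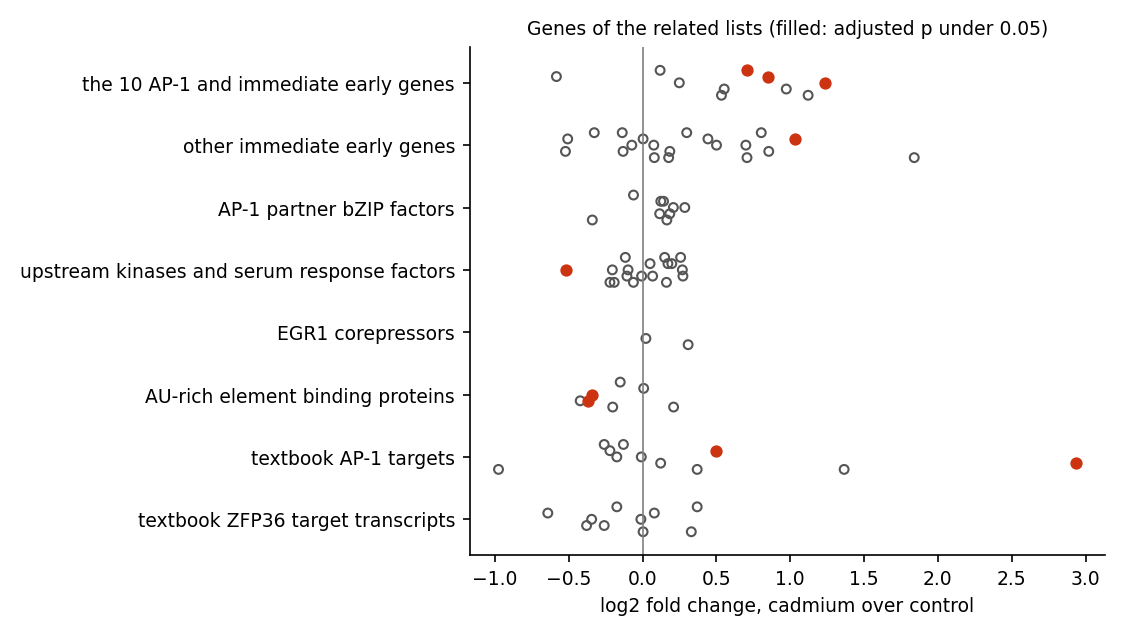
Log2 fold change of cadmium over control for the 10 genes and for the tested genes of 7 related lists (cell type markers are not drawn), 1 point per gene, filled red where the edgeR adjusted p was under 0.05 (vertical offsets only separate points). Filled points to the right of 0 include MMP3 at 2.93 and SGK1 at 1.03, and those to the left are SRF at -0.52, HNRNPD at -0.37 and KHSRP at -0.34.

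Among textbook AP-1 targets, 11 of 15 genes were tested, 2 rose, 0 fell and 9 did not pass, with a median log2 fold change of -0.0083. Over all genes 8.85% were higher and 7.66% lower with edgeR. MMP3, which encodes the matrix protease stromelysin, went from 28 and 6 reads to 227 and 117, or 1.08 and 0.713 CPM against 7.41 and 7.40 CPM. It rose by 2.93 on the log2 scale (edgeR SE 0.28, adjusted p = 0.00234). PLAUR, the urokinase receptor gene, rose by 0.50 (SE 0.10, adjusted p = 0.0160), from 47.8 and 45.6 CPM to 69.0 and 63.0 CPM. PLAUR did not pass without cadmium replicate 1 (adjusted p = 0.127).

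Tristetraprolin acts beside other proteins that bind AU-rich elements. Of 7 such genes tested with edgeR, 2 fell, 0 rose and 5 did not pass, against 7.66% lower and 8.85% higher over all genes. The list median was -0.20. DESeq2 and limma-voom each called 3 lower, against 7.05% and 8.84% of the genes each tested. These were the same 2 and the ZFP36 paralog ZFP36L2 (log2 fold change -0.42 in edgeR, adjusted p = 0.0561), which is named after its values were seen. HNRNPD, which encodes AUF1, fell by 0.37 on the log2 scale (edgeR SE 0.078, adjusted p = 0.0184), from 332 and 352 CPM to 259 and 270 CPM. KHSRP fell by 0.34 (SE 0.074, adjusted p = 0.0200), from 492 and 506 CPM to 395 and 393 CPM. Both proteins are known to promote RNA decay, and neither gene passed with either cadmium library left out (adjusted p from 0.0716 to 0.145). Of 12 textbook target transcripts of tristetraprolin, 10 were tested and 0 passed in either direction with edgeR or DESeq2. With limma-voom 1 was lower, CXCL3 (adjusted p = 0.0368), against 8.84% of all genes. At an unadjusted p under 0.05 edgeR had 0 higher and 2 lower, CXCL3 and CXCL1, against 17.3% and 16.7% of all genes. The list median was -0.093. The chemokine gene CXCL3 came nearest: its controls stood at 9.14 and 8.43 CPM and the cadmium libraries at 5.59 and 5.76 CPM (-0.64 on the log2 scale, SE 0.19, adjusted p = 0.0509). CXCL1, another chemokine, followed (-0.38, adjusted p = 0.108). With edgeR, CXCL3 passed with no filter on low counts (adjusted p = 0.0368) but not with libraries thinned to equal depth (adjusted p = 0.152). CXCL1 passed with the replicate number as a block (adjusted p = 0.0423) but not with the numbers crossed between groups (adjusted p = 0.120). Without control replicate 2 the log2 fold changes were -0.70 for CXCL3 and -0.58 for CXCL1. Leaving out control replicate 1 instead gave -0.58 for CXCL3 and -0.14 for CXCL1. Limma on log2(RPKM + 0.1) and on log2(RPKM + 1) also called CXCL3 lower (adjusted p = 0.0449 and 0.0472). Under 11 of 16 alternatives CXCL3 did not pass.

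The authors' deposited table gives an adjusted p under 0.05 to 4 of the 10 genes, all higher with cadmium: NR4A1 (0.000883), JUNB (0.00811), FOSB (0.0103) and ZFP36 (0.0103). Over all 25411 rows of the authors' deposited table, 3.87% were higher and 3.93% lower at this threshold. These rows include genes with few or no reads, a wider base than the 13663 genes tested here. The shares are therefore not on the same base as those given above for edgeR. Its log ratio, whose base the header does not name, is smaller in size than the log2 ratio of its mean RPKM for all 10 genes. In the authors' deposited table EGR1 has mean RPKM of 30.9 and 70.7, a log2 ratio of these means of 1.20, and a log ratio of 0.16. For FOS the same table gives 3.93 and 8.86 RPKM, a log2 ratio of the means of 1.17, and a log ratio of 0.14. For NR4A1 the corresponding values in the authors' deposited table are 0.89 and 0.71.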

How the data were processed

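Libraries were prepared with a TruSeq kit from RNA extracted on RNeasy columns, per the labels' protocols. STAR 2.4, DESeq2, DESeq and hg19 are listed in the submitters' processing notes, with no role. Which counter, annotation release and strand setting were used is not given in the sources used here. Whole-number read counts and RPKM per RefSeq gene were deposited for every library. In the comparison table the authors gave mean RPKM, a log ratio (read here as log2), and p-values before and after adjustment.

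Counts were tested with R 4.3.3 and edgeR 4.0.16 (filterByExpr, TMM, robust quasi-likelihood, group only), with Benjamini-Hochberg adjustment over 13663 genes and a threshold of 0.05. CPM used TMM factors, and the SE came from the F statistic. Alternatives used DESeq2 1.42.0, limma 3.58.1 (voom, or log2(RPKM + 0.1) and log2(RPKM + 1)), other scalings and filters, depth thinning, a replicate block and each library left out. In each draw of simulated counts, 200 of the 13663 genes were changed, and every gene with a read was tested. There 76.0% of changes of 1 and 96.8% of changes of 2 on the log2 scale were recovered, and 11.0% of calls were false. In the data 2255 genes were called, so that false share does not carry over to them. Changes under 1, such as those of NR4A1 and ZFP36, were not simulated. The recovered shares are averages over genes drawn at random. They do not give the recovery for FOS or EGR1, whose SE in the data were 0.95 and 1.1. The named genes were the 10 members and, from each list, up to 4 passing genes with the largest change, or, in a list with no passing gene, the 2 of smallest p. Members and lists were chosen with earlier results of these data known. MUC5AC was not analysed here, and the list entry IL8 was matched as CXCL8.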

Additional observations from a re-analysis of the deposited data

How the results depend on the processing

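The count of 3 higher genes of the set became 1 with limma on log2(RPKM + 0.1), 1 on log2(RPKM + 1) and 1 at an adjusted p of 0.01 (NR4A1 each time), and 0 on log2(RPKM + 0.1) with no filter. Without each library in turn it ranged from 1 to 7, and the count of lower genes from 0 to 1. FOSL1 then ranged from -1.07 to 0.22 and NAB2 from -0.058 to 0.091 on the log2 scale. With the replicate number as a block 4 genes of the set were higher and 0 lower (1073 and 811 over all genes, against 1209 and 1046). The labels do not say that numbers pair libraries. Deviations of same-numbered libraries correlated negatively (r = -0.21 over 13663 genes), and a block with crossed numbers, added after seeing this, gave 1 higher and 0 lower (1551 and 1471 over all genes). Over all genes, higher and lower calls numbered 625 and 472 on log2(RPKM + 0.1), 678 and 489 on log2(RPKM + 1), 67 and 1 with no filter there, 233 and 149 at 0.01, 1445 and 682 with library size alone, 1977 and 1791 without control replicate 2, and 369 and 235 or 594 and 295 when cadmium replicate 1 or 2 was left out. The cause of these shifts was not tested. Depth limits FOS and FOSB in control replicate 2 (19 reads each).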

Other observations

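EGR2, EGR3, EGR4 and NR4A2, relatives of EGR1 and NR4A1, had too few reads to be tested. Reads of EGR2 were seen in cadmium replicate 1 alone (5 reads), EGR3 had 21 and 1 in controls against 4 and 4, EGR4 had 0 or 1 read in every library, and NR4A2 had 5 and 5 against 9 and 4. EGR3 stood at 0.807 CPM in control replicate 1 and at 0.119 CPM (1 read) in control replicate 2, where 3 reads would be 0.356 CPM. With cadmium it had 0.131 and 0.253 CPM, nearer control replicate 2. For EGR1 the cadmium libraries were nearer control replicate 1.

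Within-library ratios, which do not depend on scaling between libraries, set control replicate 1 apart for one pair and control replicate 2 for others. The RPKM ratio of FOSL2 to FOSL1 was 0.568 in control replicate 1, against 1.37 in control replicate 2 and 1.25 and 1.31 with cadmium. The ratio of JUND to JUN was 3.35 in control replicate 2, against 1.18 in control replicate 1 and 1.33 and 1.68 with cadmium. The ratio of FOSB to FOS was 0.608 in control replicate 2 and 0.168 to 0.265 in the other libraries.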
